A study of Mus musculus with 17 samples.

Results

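Open chromatin was described at 7 genes that mark GABAergic neurons: Gad1, Gad2, Slc32a1, Dlx1, Dlx2, Dlx5 and Dlx6. The genes were taken as a fixed list, chosen with earlier results of these data known. Their regions were the peaks that overlapped each gene body extended by 20000 bp on each side in mm10. Of the 2136179 peaks of all libraries, 1482 lay in these windows. Merging overlapping peaks over the libraries, and keeping regions called in at least 2 libraries of 1 group, left 72 regions in the windows of 147420 in all (119 before that filter). Gad2 held 34 of them, Gad1 14, the Dlx1 and Dlx2 neighbourhood 13, the Dlx5 and Dlx6 neighbourhood 6 and Slc32a1 5.

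ATAC-seq, in which a transposase cuts and tags open DNA, had been applied to neuronal nuclei that were sorted for the marker NeuN from the nucleus accumbens of both hemispheres of C57BL/6 mice (C57BL/6J per the study's methods) aged 52 to 54 days. Each library pooled 3 animals of 1 group. Diestrus females (a low-estrogen, high-progesterone stage), proestrus females (high estrogen, low progesterone) and males were either given cocaine (10 mg/kg, intraperitoneal) and examined after 1 hour, or left as controls without cocaine. Whether the controls were given an injection is not given in the sources used here, so an effect of the drug and one of the injection cannot be told apart. The 5 groups other than cocaine males had 3 libraries each, cocaine males had 2, and the 17 libraries comprised 8 cocaine and 9 control libraries. The stage of diestrus cocaine library 2 was blank in its labels, and its title gave the group.

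GABA, the main inhibitory transmitter of the forebrain, is made from glutamate by 2 glutamate decarboxylases, GAD67 (Gad1) and GAD65 (Gad2), and loaded into synaptic vesicles by the transporter VGAT (Slc32a1). Nearly all neurons of the nucleus accumbens are GABAergic, most of them medium spiny neurons. The Dlx genes encode homeodomain transcription factors that are active in the developing subpallium, where they promote the GABAergic fate. They lie in neighbouring pairs that share enhancers, and each pair also produces noncoding RNAs (Dlx1as and Dlx6os1).

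Gad2 (chr2:22622205-22693874, plus strand), Gad1 (chr2:70553072-70602014, plus), Dlx1 (chr2:71528113-71533981, plus), Dlx2 (chr2:71543408-71546754, minus) and Slc32a1 (chr2:158610767-158615748, plus) are on chromosome 2. Dlx6 (chr6:6863334-6868568, plus) and Dlx5 (chr6:6877805-6882085, minus) are on chromosome 6. Sequences are printed 5′ to 3′ from mm10 at the strongest member peaks and at genes that changed after cocaine. The first pair gives the bases just upstream of the genes for the vesicular transporter and for GAD65, from the RefSeq promoter table (GRCm38), without the transcribed part and without capitals. They are chr2:158610508-158610757 and chr2:22622077-22622204, both plus strand. The upstream bases of Slc32a1 overlap an exon of the noncoding gene Gm14204.
Slc32a1 upstream bases: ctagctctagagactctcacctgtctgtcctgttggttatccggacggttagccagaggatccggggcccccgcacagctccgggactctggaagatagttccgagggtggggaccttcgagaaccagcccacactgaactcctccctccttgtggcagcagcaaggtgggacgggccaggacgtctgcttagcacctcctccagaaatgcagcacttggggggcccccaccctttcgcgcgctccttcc
Gad2 upstream bases: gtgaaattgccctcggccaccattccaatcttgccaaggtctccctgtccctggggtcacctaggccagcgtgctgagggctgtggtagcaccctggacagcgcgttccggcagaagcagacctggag
The next pair are the 200 bases around the median summit of the strongest region of Gad2 and of the Dlx5 and Dlx6 pair, at chr2:22679967-22680166 in a Gad2 intron and at chr6:6862763-6862962 upstream of Dlx6, plus strand and outside exons. Capitals mark an AP-1 motif in the first (the strand shown reads TGAGTCA, the reverse complement of TGACTCA), which starts 27 bases before the summit. In the second they mark a cAMP response element (TGACGTCA), which starts 28 bases after it.
Gad2 intron element: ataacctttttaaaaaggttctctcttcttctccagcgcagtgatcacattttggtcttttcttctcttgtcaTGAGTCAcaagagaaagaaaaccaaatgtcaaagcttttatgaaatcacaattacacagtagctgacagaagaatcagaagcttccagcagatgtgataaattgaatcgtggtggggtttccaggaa
Dlx6 upstream element: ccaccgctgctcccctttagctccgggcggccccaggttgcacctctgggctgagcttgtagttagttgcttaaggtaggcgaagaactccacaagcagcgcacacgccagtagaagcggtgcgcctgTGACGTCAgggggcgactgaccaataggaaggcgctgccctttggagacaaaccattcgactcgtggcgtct
The last are the 140 bases upstream of Dlx5, at chr6:6882086-6882225, minus strand. Here capitals mark the 66 bases nearest the gene, up to the farthest upstream summit of the strongest peak in any library.
Dlx5 upstream bases: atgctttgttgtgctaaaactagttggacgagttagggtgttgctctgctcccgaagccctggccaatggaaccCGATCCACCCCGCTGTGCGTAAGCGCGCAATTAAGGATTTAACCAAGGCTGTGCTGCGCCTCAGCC

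The motifs searched, on both strands, were AP-1 (TGACTCA), the cAMP response element (TGACGTCA), a homeodomain core (TAATTA) and an E-box (CAGCTG). Of the 5 members with an entry in the promoter table (Gad1, Gad2, Slc32a1, Dlx1 and Dlx2), 0 held any of them in the bases of the table, against 5.202%, 1.79%, 5.29% and 16.3% of 32851 promoters, respectively. Within 100 bp of the summit, 5 of the 72 member regions held the AP-1 motif (6.94%, against 10.1% of all regions), 1 the cAMP response element (1.39% against 0.498%), 6 the homeodomain core (8.33% against 7.25%) and 4 the E-box (5.56% against 12.1%). A match describes letters and not binding.

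Libraries held 75458 to 157005 peaks, which covered 42.2 to 107 Mb, and the 2 cocaine male libraries had the fewest peaks and the least coverage. Fold enrichment, the height of a peak over the background of its own library, had medians of 3.51 to 3.72 in male controls and of 2.94 to 3.65 in the other libraries. Strengths were therefore compared after quantile normalization across all regions or promoters. Promoter peaks of 3 of 3 neuronal and 6 of 6 medium spiny neuron markers were called in all 17 libraries, and 0 of 3 astrocyte markers in any. Of all 21755 protein-coding genes, 11359 had a promoter peak in all 17 libraries. Of 6 oligodendrocyte lineage markers, Olig1 and Mbp had a promoter peak in 17 of 17 libraries and Pdgfra in 0. Olig2 had one in 1 diestrus and 1 proestrus cocaine library, and Sox10 and Mog each in 1 proestrus cocaine library. Olig2, Sox10 and Mog had none in controls. Of 3 microglia markers P2ry12 had one in 4 libraries, all after cocaine (1 diestrus, 2 proestrus and 1 male), and the others in 0. The part of these glial calls in the results was not tested. The summed fold enrichment of the oligodendrocyte list was 12.3 to 15.6 in diestrus controls and 16.8 to 19.2 in diestrus cocaine, which do not overlap, and over the other groups it ranged from 12.2 to 31.2 with overlap between controls and cocaine. As deposited, this sum therefore moved with the diestrus comparison, and its part in those results was not tested. After normalization Olig1 had a diestrus difference of -0.02 (log2, limma, adjusted p = 0.93) and Mbp of 0.21 (adjusted p = 0.14). The summed promoter fold enrichment of 8 markers of cortical excitatory neurons ranged over 36.9 to 41.9 in male controls, 3.17 to 3.26 in cocaine males, 17.4 to 20.2 in proestrus controls, 11.8 to 14.3 in proestrus cocaine, 2.08 to 19.9 in diestrus controls and 5.97 to 22.7 in diestrus cocaine. In male controls Emx1 and Neurod6, which define those neurons, had a promoter peak in 3 of 3 libraries, and in cocaine males in 0 of 2. Fezf2 had one in 0 of 17. The male comparisons, male controls against female controls and the proestrus comparison therefore moved with this list, while its diestrus ranges overlapped, and its part in the results was not tested. In bulk nuclei, a change in the share of a cell type and a change within it cannot be told apart.

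Member regions had a median width of 924 bp, against 714 bp over all regions, and 5 of the 72 were wider than 10000 bp, against 0.739% of all. Those 5 spanned the start sites of Gad1, Gad2, Slc32a1, Dlx6 and Dlx5, where the peaks of the libraries merged into broad blocks. By place, 27 regions were intronic, 13 exonic, 13 intergenic, 9 at a member's start site and 10 within another gene. Of the 34 Gad2 regions, 22 were intronic and 1 was at the start site. A total of 17 regions (23.6%) were called in all libraries, against 24.995% of all regions: 4 of 6 at Dlx5 and Dlx6, 3 of 5 at Slc32a1, 5 of 34 at Gad2, 3 of 13 at Dlx1 and Dlx2 and 2 of 14 at Gad1.

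The strongest was the start region of Slc32a1 (mean fold enrichment 19.6), with the strongest summits of all 17 libraries 10 to 70 bp after the annotated start. The region upstream of Dlx6 followed (17.2), then the Gad2 intron element (16.5) and the region at the Dlx5 start (13.3). The Slc32a1 window also held a strong region (11.8) in the neighbouring gene Actr5. The start regions of Gad2 (10.1) and Gad1 (9.75) were each below an element farther along the gene, the Gad2 intron element and Gad1 region 12 (10.6). A start region is the merged block over a start site, and its strength is that of the strongest peak anywhere in it. At Gad2 these summits lay 152 to 5088 bp after the start, with 9 of 17 libraries within 200 bp of the median. At Gad1 it was 8 of 17, so different elements are compared there. The strongest Dlx1 summit lay 1517 bp after the start. The median of member regions, 2.88, was below that of all regions, 3.28.

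**Figure D1:**
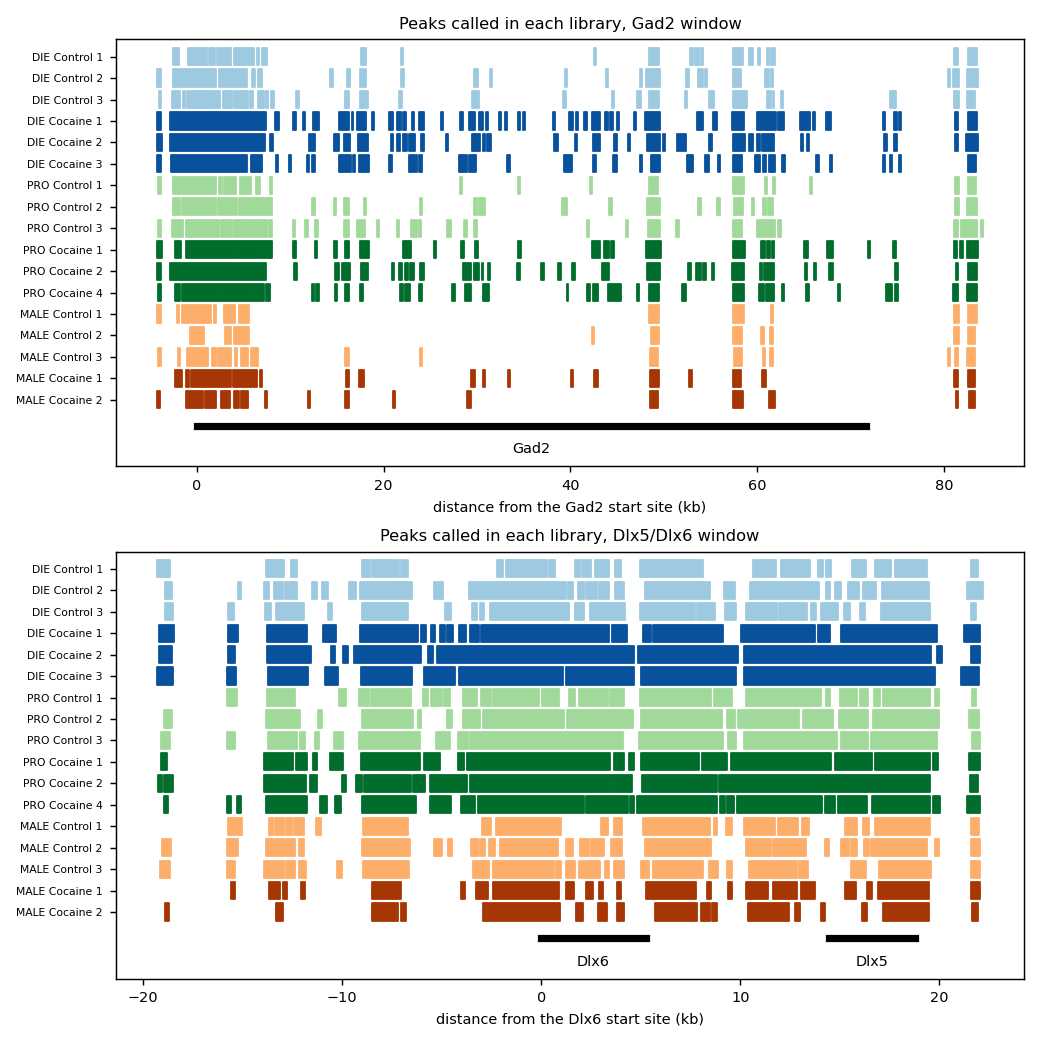
Peaks of each library (rows, by group) in the windows of the member genes, placed by distance in kb from a member's start site. Peaks in the Gad2 window numbered 37 to 48 in the diestrus cocaine libraries and 23 to 30 in their controls, and those around Dlx5 and Dlx6 formed broad blocks.

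After cocaine, Gad2 gained peaks along its body in each sex and stage. The number of its 34 regions called was 11, 17 and 19 in diestrus controls and 32, 24 and 27 after cocaine. In proestrus it was 11, 15 and 17 in controls and 19, 25 and 21 after cocaine. In males it was 7, 7 and 9 in controls and 12 and 11 after cocaine. The groups did not overlap in any of the 3 strata, and male controls had the fewest. The mean difference over the strata was 7.72 regions (two-sided exact permutation test within strata over 4000 assignments, p = 0.00025, which is the smallest they can give, Benjamini-Hochberg adjusted p = 0.0476 over all genes). Over 17146 gene windows, 0.198% were called higher and 6.4% lower, and of the 7 members 1 was called. The adjusted p ranged over 0.0132 to 0.102 when each library was left out, and the call was kept only without diestrus cocaine library 1, each omission also lowering the number of assignments. With the strongest peaks only (−log10 q of at least 5) the difference was 1.89 (adjusted p = 0.137), and with equal numbers of peaks per library it was 3.0 (adjusted p = 0.0875). The filter on regions uses the groups and was not redone for each assignment. Of the 34 regions, 8 were called in cocaine libraries only and could pass the filter only through a cocaine group. Without that filter the call was lost.

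The other members did not pass this test. Slc32a1 had a difference of -0.78 regions (adjusted p = 0.0854). Dlx1 had a difference of 1.28 and Dlx2 of 1.39 regions, Gad1 of 0.17 and Dlx6 of -0.11, while Dlx5 had 3 of 3 regions in every library. Regions seen in cocaine libraries only numbered 10 of 72, against 4.09% of all regions, of which 8 were at Gad2, 1 at Gad1 and 1 at Dlx1 and Dlx2. Regions seen in control libraries only numbered 2, both intergenic and in the Slc32a1 window, against 16.6%. Called in no male library were 30 of the 72, a count that overlaps those just given, with 18 at Gad2 and 7 at Gad1, against 16.5% of all. A region called in cocaine libraries only could pass the filter only through a cocaine group. Likewise, one in control libraries only needed a control group, and one in no male library a female group. These counts therefore describe the calls and are no test of an effect.

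A region was counted as gained in a stratum when every cocaine library and no control library had called it, and lost in the converse case. In diestrus 5 of the 72 were gained, against 1.16% of all regions, and 0 were lost, against 1.26%. The gained count was 6 to 11 when 1 diestrus library was left out, highest without diestrus cocaine library 2, and it was 1 with peaks of a −log10 q of at least 5 and 3 with equal numbers of peaks per library. The 5 were Gad2 regions 5, 6, 10 and 12, numbered by position within the window, and Gad1 region 4 (chr2:70581117-70581843, in an intron). Gad2 region 10 (chr2:22642772-22643464, also intronic) was called in 3 of 3 diestrus, 1 of 3 proestrus and 1 of 2 male cocaine libraries and in 0 of 9 controls. In proestrus 1 was gained (2.45% of all), Gad2 region 31 downstream of the gene (chr2:22695648-22697262), and 0 were lost (1.64%). That region was called in 3 of 3 diestrus and 3 of 3 proestrus cocaine libraries, 1 of 3 diestrus controls and in no male library. In males 1 was gained (1.66% of all), Gad2 region 13 in an intron, and 1 was lost, Gad1 region 14 beyond the 3′ end (chr2:70620163-70620882), where 16.8% of all regions were lost. With 1 library left out, 1 to 3 were gained in proestrus and 1 to 6 in males, the 6 without male cocaine library 2.

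Over all 17 libraries, no region passed Fisher's exact test of calls after adjustment (0 of 36 member regions tested, 0% of 64304 in all). At an unadjusted p under 0.05, 4 member regions were called more often after cocaine, all at Gad2 (regions 10, 28, 30 and 31), and 0 less often. Over the whole set, 2452 regions leaned towards cocaine and 5933 towards controls. Region 10 had the smallest p (0.00905, two-sided exact test, adjusted p = 0.273).

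**Figure D2:**
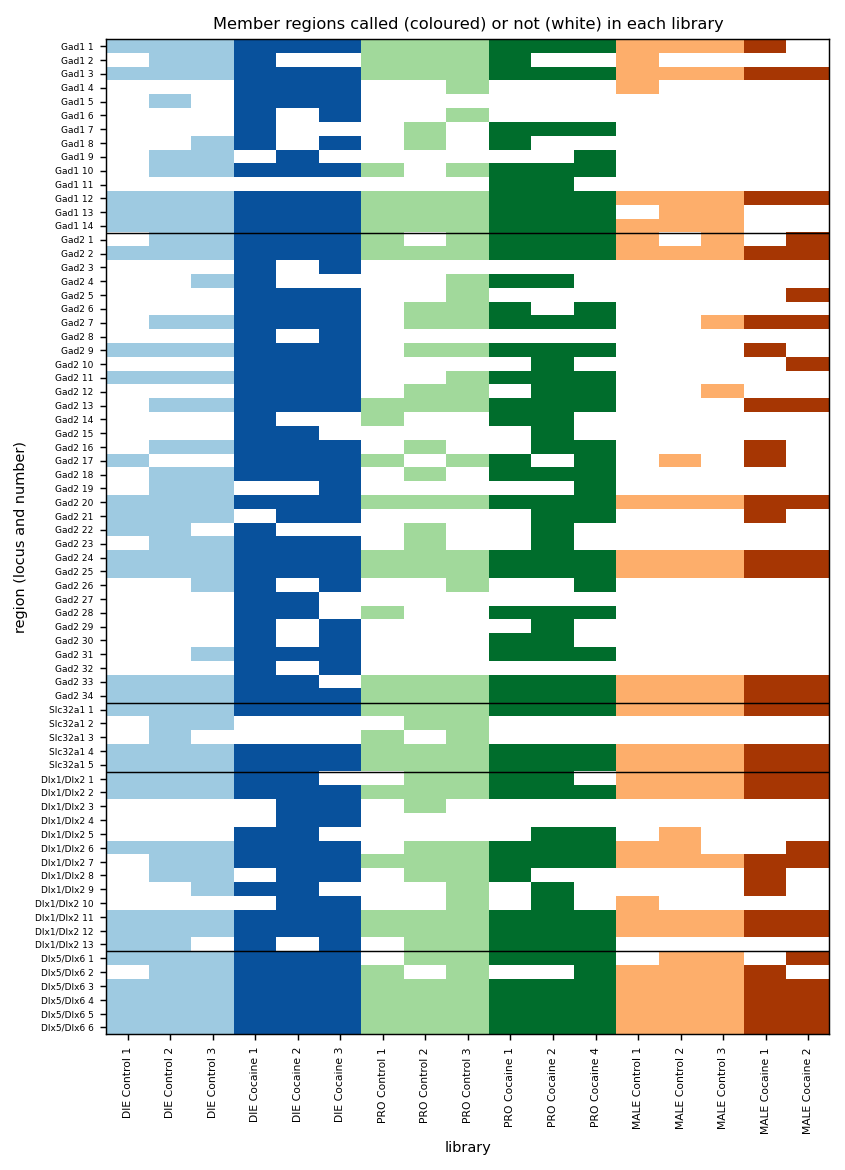
Each row is a member region and each column a library, and coloured cells are calls. The Gad2 rows show more calls in the cocaine libraries of each stratum, and fewest in male controls.

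The covered length of the Gad2 window changed with the number of its peaks. Peaks covered 12.9, 15.9 and 16.5% of it in diestrus controls and 29.6, 24.9 and 22.7% after cocaine. In proestrus they covered 11.5, 16.3 and 19.9% in controls and 20.8, 23.5 and 21.5% after cocaine. In males they covered 8.75, 6.93 and 9.38% in controls and 12.5 and 9.41% after cocaine. Cocaine libraries were above the controls of their stratum in each case, narrowly so in males (9.41 against 9.38% for the closest pair). The widest single peak at Gad2 was 1997 to 4628 bp in diestrus controls and 8166 to 10249 bp after cocaine, and in males 1485 to 2316 bp and 1787 to 3231 bp.

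Per Mb covered in the same library, a measure chosen after seeing the data, Gad2 rose by 0.95 on the log2 scale over the 3 strata (SE 0.090, limma, adjusted p = 0.00026). In diestrus it rose by 0.91 (SE 0.15, adjusted p = 0.0123), in proestrus by 0.58 (SE 0.15, adjusted p = 0.0109) and in males by 1.36 (SE 0.17, adjusted p = 0.00047). The diestrus call was lost without diestrus cocaine library 2 (adjusted p = 0.0816) or 3 (adjusted p = 0.0888), and the proestrus difference was 0.21 with GC correction (adjusted p = 0.356). In plain base pairs the difference over the strata was 0.55 (adjusted p = 0.0045), with 0.77 in diestrus, 0.50 in proestrus and 0.39 in males (adjusted p = 0.0817, 0.0967 and 0.16). In females alone it was 0.74 (adjusted p = 0.0034).

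Of the 7 members, 6 passed over the strata in this share, where 19.8% of 16048 windows were higher and 13.6% lower. The members had a median of 0.53 and all windows of -0.0055. Dlx5 rose by 0.53 (SE 0.11, adjusted p = 0.0047), Dlx6 by 0.49 (SE 0.11, adjusted p = 0.0055), Dlx1 by 0.84 (SE 0.24, adjusted p = 0.016), Dlx2 by 0.81 (SE 0.23, adjusted p = 0.0181) and Gad1 by 0.23 (SE 0.071, adjusted p = 0.0229), while Slc32a1 had 0.24 (adjusted p = 0.087). Dlx1 and Dlx2 share most of their window, as do Dlx5 and Dlx6. In plain base pairs Gad2 alone of these passed, and Gad1 had the opposite sign, -0.16 (adjusted p = 0.207). Without cocaine male library 1 or 2, Gad1 lost its call (adjusted p = 0.055 and 0.0599). In females alone 3 passed, Gad2, Dlx5 and Dlx6.

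By stratum, 3 members passed in diestrus (3.93% of all windows), with Gad1 (0.44) and Dlx6 (0.65) beside Gad2. The Gad1 call was kept only without diestrus cocaine library 1, proestrus cocaine library 2 or male control library 2, and that of Dlx6 only without one of these or male control library 1, with adjusted p up to 0.211 and 0.244 otherwise. In proestrus 1 passed, Gad2 (14.1% of all windows, with a median of -0.10 over all windows). In males 3 passed (10.8% of all windows), Gad2, Slc32a1 (0.76) and Dlx5 (0.77), against a shift of 0.19 in the median of all windows, and in plain base pairs Slc32a1 and Dlx5 had the opposite sign, -0.22 and -0.21. Both lost the call without male cocaine library 1 (adjusted p = 0.105 and 0.0975), male cocaine library 2 (0.13 and 0.177) or male control library 3 (0.0579 and 0.0744). Slc32a1 also lost it without male control library 2 (0.053) and Dlx5 without male control library 1 (0.0673).

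**Figure D3:**
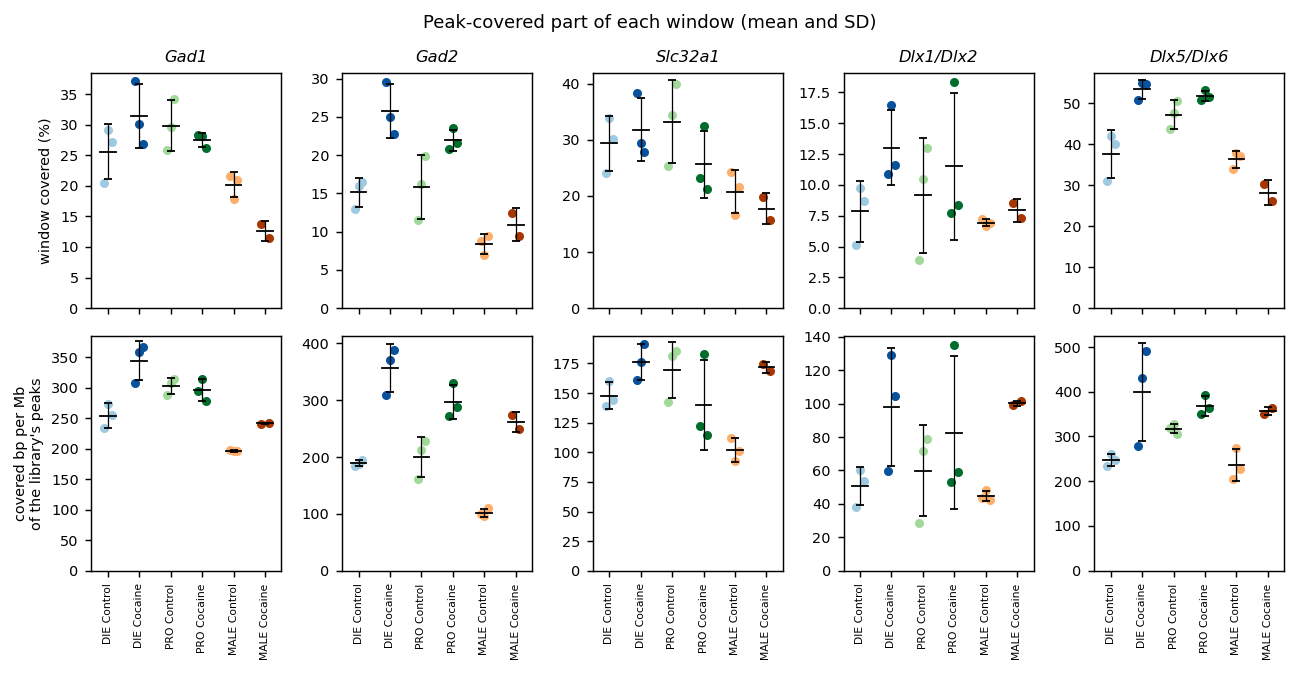
Share of each window covered by peaks, in percent and in bp per Mb covered in the library, by group, with the mean and SD. Gad2 was higher after cocaine in each stratum, with male controls the lowest at 6.93 to 9.38%.

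At Gad2, the strongest peak reaching within 1 kb of the start site was stronger after cocaine. Such a peak could extend past 1 kb. In diestrus control library 1 the start peak (-0.941 to 1.055 kb, 6.71) was separate from a stronger one at 3.966 to 5.413 kb (9.55). In diestrus cocaine library 1 a single peak spanned -2.847 to 7.401 kb (13.5). The whole start region differed by 0.28 in diestrus, 0.25 in proestrus and 0.37 in males (limma, adjusted p = 0.158, 0.257 and 0.113). As deposited, its strength overlapped between controls and cocaine in each stratum. In males it was 9.94, 8.40 and 9.11 in controls and 8.96 and 8.49 after cocaine. The part of such merging in the rise near the start site was not tested. The promoter fold enrichment was 6.71, 9.16 and 7.37 in diestrus controls and 13.5, 13.8 and 9.65 after cocaine. In proestrus it was 7.92, 7.19 and 10.05 in controls and 10.5, 13.8 and 9.53 after cocaine, where the groups overlap. In males it was 7.01, 7.44 and 6.81 in controls and 8.96 and 8.25 after cocaine. Group means were 7.75 ± 1.26 (SD, n = 3) and 12.3 ± 2.34 (n = 3) in diestrus, 8.39 ± 1.48 (n = 3) and 11.3 ± 2.23 (n = 3) in proestrus, and 7.08 ± 0.32 (n = 3) and 8.61 ± 0.50 (n = 2) in males. After quantile normalization Gad2 rose by 0.51 on the log2 scale over the strata (SE 0.067, limma, adjusted p = 0.0027). The adjusted p stayed at or under 0.0188 when each library was left out, and in females alone the difference was 0.47 (adjusted p = 0.0119). In males, the Gad2 rise of 0.59 (SE 0.12, adjusted p = 0.0433) was lost in 10 of 17 cases (adjusted p up to 0.248) and kept only without diestrus control library 1 or 2, diestrus cocaine library 1 or 3, proestrus control library 2 or 3 or proestrus cocaine library 2. In diestrus the rise of 0.53 (SE 0.11, adjusted p = 0.0197) was lost without diestrus control library 2 or 3 or diestrus cocaine library 2 or 3 (adjusted p = 0.0567, 0.0788, 0.112 and 0.108). In proestrus the difference was 0.39 (SE 0.11, adjusted p = 0.152).

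The start sites of the Dlx5 and Dlx6 pair followed. At Dlx6 the fold enrichment was 16.1, 15.5 and 14.4 in diestrus controls and 22.0, 26.8 and 19.1 after cocaine. It was 13.9, 16.1 and 16.3 in proestrus controls and 18.4, 21.3 and 18.01 after cocaine. In males it was 14.1, 14.9 and 15.5 in controls and 16.4 and 13.9 after cocaine. The groups were apart in both female stages and overlapped in males. At Dlx5, controls had 8.52 to 14.5 in diestrus, 9.71 to 13.6 in proestrus and 11.02 to 12.4 in males, and cocaine libraries 13.3 to 21.6, 13.4 to 14.97 and 11.9 to 14.2, which overlap in all 3 strata. Over the strata Dlx5 rose by 0.37 (SE 0.080, adjusted p = 0.037) and Dlx6 by 0.34 (SE 0.070, adjusted p = 0.030). Leaving out single libraries lost the Dlx5 call in 12 of 17 cases and the Dlx6 call in 13 of 17, with adjusted p up to 0.1001 and 0.0973 and differences of 0.32 to 0.40 and 0.32 to 0.38. Both were kept without diestrus control library 1, diestrus cocaine library 1, proestrus cocaine library 2 or male control library 2, and Dlx5 also without diestrus control library 2. In females alone they were 0.33 (adjusted p = 0.0347) and 0.35 (adjusted p = 0.0179).

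In diestrus alone, Dlx5 rose by 0.45 (SE 0.13, adjusted p = 0.0381) and Dlx6 by 0.42 (SE 0.12, adjusted p = 0.0317). Both calls were lost without diestrus control library 2 or 3 or diestrus cocaine library 2 or 3 (adjusted p from 0.0648 to 0.165), and that of Dlx5 also without diestrus control library 1 (0.30, adjusted p = 0.114). Gad1, whose fold enrichment was 7.36, 10.05 and 8.41 in diestrus controls and 12.3, 14.8 and 8.50 after cocaine, had a difference of 0.30 there (adjusted p = 0.0691). Over the strata Gad1 rose by 0.30 (SE 0.067, adjusted p = 0.0414), a call kept only without diestrus cocaine library 1, proestrus cocaine library 2 or male control library 2, with adjusted p up to 0.1001 otherwise, and in females alone it had 0.17 (adjusted p = 0.133). Dlx2 (0.23, adjusted p = 0.206) and Slc32a1 (0.17, adjusted p = 0.143) did not pass. Dlx1 had no promoter peak in proestrus control library 1 and was not tested. In the other 16 libraries its fold enrichment ranged from 2.93 to 9.18.

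In counts, 4 of 6 member promoters tested rose over the strata, where 0.889% of 11359 promoters rose and 1.1% fell, with a median of 0.32 for the members and 0.0064 for all. In diestrus 3 of 6 rose (8.01% of all). In proestrus 0 of 6 rose (0.0088% of all), and at an unadjusted p under 0.05 Gad2 and Dlx6 were higher and Slc32a1 lower. In males 2 of 6 rose (0.114% of all), Gad2 and Slc32a1. With GC correction 1 passed in diestrus, Dlx6, where Gad2 had 0.32 (adjusted p = 0.0998) and Dlx5 0.42 (adjusted p = 0.0697).

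**Figure D4:**
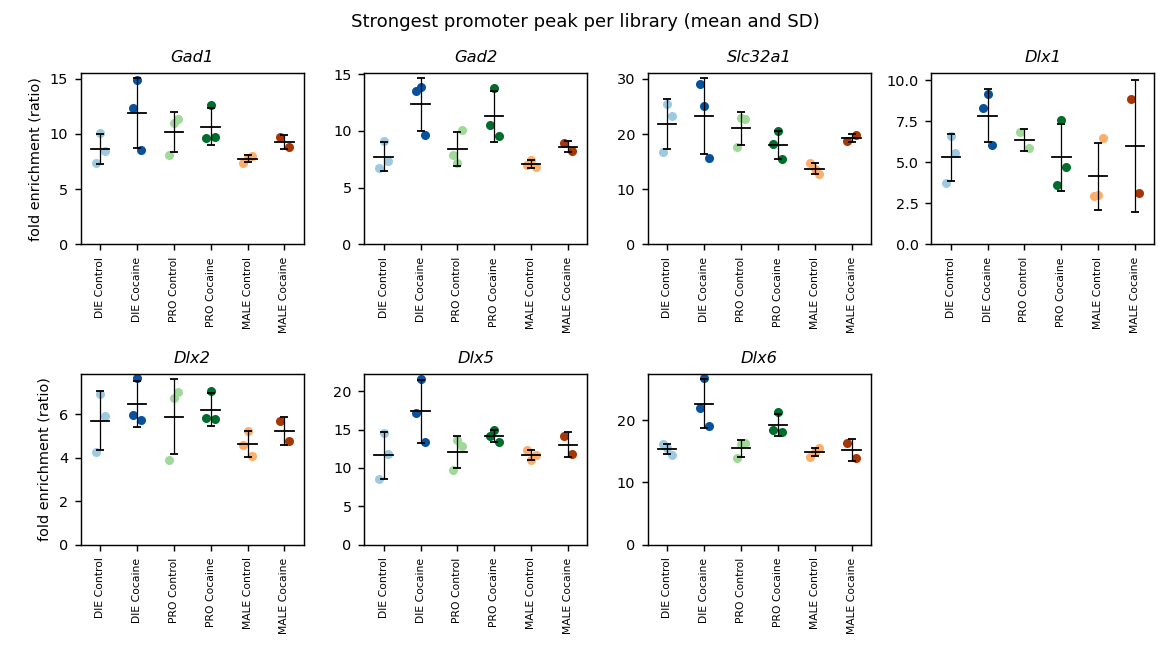
Fold enrichment of the strongest peak reaching within 1 kb of each start site, 1 point per library, with the group mean and SD. At Gad2 the cocaine points lie above the controls in diestrus and males and overlap them in proestrus. At Slc32a1 male controls are lowest, at 12.8 to 14.8.

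At the start sites, Slc32a1 was the 1 of 6 members whose response to cocaine passed the test of a difference between the sexes. Its promoter fold enrichment was 14.8, 13.6 and 12.8 in male controls and 18.8 and 19.9 in cocaine males. In diestrus it was 16.8, 25.5 and 23.2 in controls and 29.1, 25.03 and 15.6 after cocaine, and in proestrus 17.6, 22.97 and 22.7 in controls and 18.1, 20.5 and 15.5 after cocaine. Female groups overlapped and the male groups did not. On the normalized log2 scale it rose by 0.80 in males (SE 0.12, adjusted p = 0.0105), with -0.03 in diestrus (adjusted p = 0.843) and -0.26 in proestrus (adjusted p = 0.205). The male call was lost without male control library 3 (adjusted p = 0.0602), male cocaine library 1 (0.0569) or male cocaine library 2 (0.132). The male effect minus the mean female effect was 0.95 (SE 0.14, adjusted p = 0.0105), and 0.85 without male cocaine library 2 (adjusted p = 0.0546). This was 1 of 6 in the higher direction, against 11.6% of all promoters. The sum over cortical excitatory markers moved with the male comparison (36.9 to 41.9 in controls and 3.17 to 3.26 after cocaine), and its part in this difference was not tested. The same measure on the whole start region gave 0.96 (SE 0.18, adjusted p = 0.002), which passed without each library, and 1 of 17 member regions passed, against 8.17% of all regions.

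In the covered share, Gad2 and Slc32a1 passed the interaction with 0.62 (SE 0.20, adjusted p = 0.0279) and 0.78 (SE 0.23, adjusted p = 0.0198), 2 of 7 against 23% of all windows. All windows had a median of 0.26 in this contrast. In plain base pairs both had the opposite sign, -0.25 and -0.088. With median centring Gad2 had 0.38 (adjusted p = 0.139), and with GC correction Slc32a1 had 0.17 (adjusted p = 0.548). Both calls were lost without male control library 2 (adjusted p = 0.0704 and 0.0559), male cocaine library 1 (0.119 and 0.0756) or male cocaine library 2 (0.0798 and 0.0786).

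Before cocaine, most of the member promoters tested were weaker in males than in females after normalization. Relative to female controls of both stages, male controls were lower at Slc32a1 by 0.90 (log2, SE 0.094, adjusted p = 7.6e-05), at Gad1 by 0.57 (SE 0.097, adjusted p = 0.0032), at Gad2 by 0.49 (SE 0.096, adjusted p = 0.0057), at Dlx2 by 0.61 (SE 0.16, adjusted p = 0.0167) and at Dlx6 by 0.34 (SE 0.10, adjusted p = 0.0272), while Dlx5 had -0.29 (adjusted p = 0.0817). This was 5 of 6 against 9.32% of all promoters. The Dlx2 call was lost without male control library 3 (adjusted p = 0.0852) and with GC correction (-0.48, adjusted p = 0.0806), and that of Dlx6 without male control library 1, 2 or 3 (adjusted p = 0.0986, 0.0859 and 0.0581). As deposited, the fold enrichments of Dlx6 were 14.1 to 15.5 in male controls and 13.9 to 16.3 in female controls, so its difference rests on the normalization. Male and female controls also overlapped as deposited at Gad1 (7.39 to 8.01 against 7.36 to 11.4) and Gad2 (6.81 to 7.44 against 6.71 to 10.05). They overlapped at Dlx2 as well (4.06 to 5.23 against 3.91 to 7.01), so these differences also rest in part on the normalization. At Slc32a1 male controls (12.8 to 14.8) were below the female controls (16.8 to 25.5) as deposited too. The covered share gave 3 of 7 lower (24.3% of all windows), Gad2 by 0.93, Slc32a1 by 0.63 and Gad1 by 0.49, and these 3 passed in plain base pairs as well. With GC correction Slc32a1 had -0.27 (adjusted p = 0.113).

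Among regions called in all libraries, 6 of 17 were lower in male controls, against 11.9% of all. These were the start regions of Slc32a1 (-0.89, adjusted p = 1.7e-05), Gad1 (-0.54), Gad2 (-0.32) and Dlx2 (-0.53), the Gad2 intron element (-0.46) and an intergenic region past Gad2, region 34 (-0.53). Those of Slc32a1, Gad1 and region 34 kept the call without each library. The Gad2 intron element lost it without male control library 1 (adjusted p = 0.082) or 3 (0.134), and the Dlx2 start region without diestrus control library 2 or 3, proestrus control library 2 or 3 or male control library 1 or 3 (adjusted p from 0.0521 to 0.128). The Gad2 start region lost it in 10 of 17 cases (adjusted p up to 0.174), and kept it without diestrus control library 2, proestrus control library 1, diestrus cocaine library 1 or 3 or any 1 proestrus cocaine library. The promoter peaks of 4 of 6 medium spiny neuron markers were lower in male controls as well, Drd1 by 0.48, Drd2 by 0.68, Ppp1r1b by 0.79 and Tac1 by 0.67, against 9.32% of all promoters. Of 3 neuronal markers 1 was lower, Rbfox3 (which encodes NeuN) by 1.31, while Snap25 had 0.18 and Syt1 0.18 and did not pass. Male controls also had the highest sum over markers of cortical excitatory neurons (36.9 to 41.9), whose part in these differences was not tested. Between diestrus and proestrus controls, 0 of 6 member promoters and 0 of 17 regions differed, against 0.0616% and 0.47% of all in either direction. The smallest p was at the Gad1 start region (-0.44, bounds of 2 SE -0.72 to -0.15, adjusted p = 0.156).

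**Figure D5:**
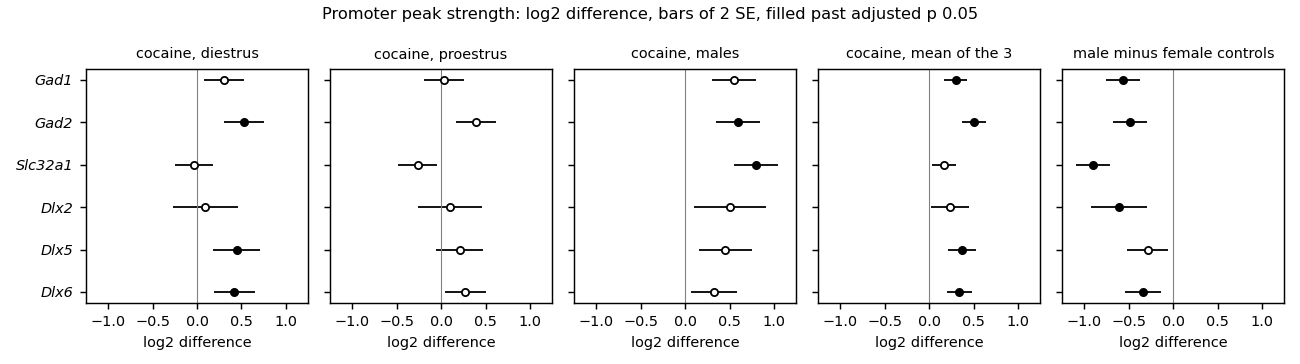
Differences in normalized promoter strength (log2) for the 6 members tested, by contrast, with bars of 2 SE and filled points past an adjusted p of 0.05. Gad2 lies above 0 in each cocaine contrast, and Slc32a1 lies at 0.80 in males and near or under 0 in females.

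Of the 17 member regions called in all libraries, 8 were stronger after cocaine over the strata, against 6.61% of all regions, and 0 weaker. They were the start regions of Dlx5 (0.42, adjusted p = 0.0045), Dlx6 (0.37, adjusted p = 0.0054), Gad1 (0.37, adjusted p = 0.0076), Gad2 (0.30, adjusted p = 0.0144) and Dlx1 (0.40, adjusted p = 0.0167), the intronic Gad2 regions 20 (0.34, adjusted p = 0.0231) and 25 (0.33, adjusted p = 0.0234), and a region of Dlx6os1, a noncoding RNA gene of this locus (0.29, adjusted p = 0.0456). The start regions of Dlx5, Dlx6, Gad1 and Gad2 passed without each library. At Gad1 and Gad2 the strongest summits lay at differing places in the block. The Dlx6os1 region lost its call in 13 of 17 cases (adjusted p up to 0.19) and kept it without diestrus cocaine library 1, proestrus control library 3, male control library 2 or male cocaine library 2. Without male cocaine library 1, the Dlx1 start region had 0.34 (adjusted p = 0.0768), Gad2 region 20 had 0.33 (0.065) and region 25 had 0.33 (0.0576). Without male cocaine library 2, regions 20 and 25 had 0.35 (0.0515) and 0.33 (0.0607), and region 25 lost its call also without diestrus cocaine library 3 (0.0512). In females alone 3 of the 8 passed, those at Dlx5, Dlx6 and Dlx6os1.

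By stratum, 2 rose in diestrus (4.65% of all), the start regions of Dlx5 (0.54, adjusted p = 0.0311) and Dlx6 (0.48, adjusted p = 0.0335), and each lost the call without diestrus control library 3 or diestrus cocaine library 2 or 3 (adjusted p from 0.0855 to 0.181). The Dlx5 region also lost it without diestrus control library 1 (0.117) and the Dlx6 region without diestrus control library 2 (0.111). In males 4 rose (3.26% of all), the start regions of Slc32a1 (0.82, adjusted p = 0.0015), Gad1 (0.69, adjusted p = 0.0094) and Dlx1 (0.77, adjusted p = 0.0192) and Gad2 region 20 (0.70, adjusted p = 0.0182). That of Slc32a1 passed without each library, and the other 3 lost the call without male cocaine library 1 (adjusted p = 0.0927, 0.235 and 0.134). Gad1 and Gad2 region 20 also lost it without male cocaine library 2 (0.0721 and 0.103), the Dlx1 region without male control library 1 (0.0661) and Gad2 region 20 without male control library 2 (0.0709). In proestrus 0 rose (2.28% of all). The smallest p there was at the Gad2 intron element with the AP-1 motif, with fold enrichments of 12.04, 13.8 and 12.5 in controls and 20.7, 18.7 and 17.4 after cocaine. These did not overlap (0.52, SE 0.16, adjusted p = 0.0617), and in diestrus the same element had 17.7, 18.9 and 19.6 in controls and 26.6, 19.2 and 16.9 after cocaine, which did.

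Other genes of GABAergic neurons were described from lists. Of 12 genes of GABA metabolism and transport, 9 had a promoter peak in all 17 libraries, against 11359 of 21755 protein-coding genes. Of those 9, 0 changed over the strata, with a median of 0.09, where 0.889% of all promoters rose and 1.1% fell. In male against female controls 3 of 9 were lower (9.32% of all promoters), among them Abat (GABA transaminase, by 0.33) and Gabarap (by 0.38). Of 18 transcription factors of subpallial GABAergic neurons, 11 were tested and 3 rose over the strata (0.889% of all promoters), among them Sp9 (0.35, adjusted p = 0.0457) and Meis2 (0.31, adjusted p = 0.0415), with a median of 0.12. In covered share 9 of 13 of them rose and 1 fell (19.8% and 13.6% of all windows), led by Isl1 (1.74, adjusted p = 0.00034) and Foxp2 (1.10, adjusted p = 0.0037), while Foxp1 fell by 0.24 (adjusted p = 0.0447). Dlx3 and Dlx4, the other genes of the family in the list, had a promoter peak in 0 of 17 libraries. Among medium spiny neuron markers, 0 of 6 promoters changed over the strata (0.889% of all rose and 1.1% fell). In diestrus Penk (0.95), Adora2a (0.56) and Tac1 (0.61) rose and Ppp1r1b fell by 0.48. There 8.01% of all promoters rose and 7.12% fell. Of 3 neuronal markers, Rbfox3 fell by 0.77 over the strata (adjusted p = 0.03, where 1.1% of all promoters fell), while Snap25 had 0.14 and Syt1 0.18 and did not pass.

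The promoters whose strength over the 17 libraries was most like the mean of the member promoters (Pearson's r over 11323 genes compared) were Ptma (r = 0.89), Sp9 (0.88), Ttc3 (0.88), Pigp (0.88) and Ccdc103 (0.88). Ttc3 and Pigp share 1 region. Sp9, a zinc finger factor of striatal neurons, is also on the list of subpallial factors. The points share library and depth.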

How the data were processed

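ATAC-seq libraries of sorted neuronal nuclei were compared by their deposited peaks. The authors trimmed adapters, mapped reads to mm10 (BWA-MEM), and ran the peak caller MACS2 library by library. Versions are not given in the sources used here. The deposited peaks carry a fold enrichment over the library's own background (a ratio), and the p and q of each peak as −log10, all from the authors' peak caller. The authors' own test used DESeq2 on counts, which were not used here. All deposited columns belonged to a sample of the series (0 did not).

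Peaks of chromosomes 1 to 19 and X were merged where they overlapped by at least 1 bp, and regions called in at least 2 libraries of 1 group were kept. The build was checked against GRCm38 with GENCODE vM21, where 0 peaks reached past a chromosome end and 51.4% of start sites overlapped peaks of library 1, and 5.09% did so after moving them by 100 kb. No 2 libraries shared over 0.0728% of their intervals.

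Regions called in 4 to 13 libraries were tested with Fisher's exact test. The number of regions per gene window was tested by exact permutation within strata. The log2 fold enrichment of the strongest peak was tested with limma 3.58.1 (R 4.3.3) in 1 fit of the 6 groups. Quantile normalization over regions called in all libraries, or over promoters, came first. The promoter value was that of the strongest peak reaching within 1 kb of the start of the longest transcript, wherever its summit lay. A promoter peak was required in every library. The log2 of covered bases per Mb covered was tested in the same way without quantile normalization. Adjusted p-values are Benjamini-Hochberg over all features, at 0.05. Comparisons within a stratum by calls alone have no p, since 3 libraries against 3 cannot give one below 0.1. Scripts used Python 3.11.15, pandas 2.3.3, NumPy 2.4.6 and SciPy 1.17.1, and were tested on simulated data. Depth in reads is unknown, so a region with no call may still hold reads.

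Members and gene lists were chosen with earlier results of these data known, so they are no independent support. The promoter and covered-share measures, and the fits on females only, were added after seeing the data. Regions are named if at a member's start site, gained or lost, past a threshold, among the 10 strongest or among the 3 with the smallest p of a contrast. Libraries of a group are separate pools, so p-values measure the spread between pools. Same-numbered libraries were checked for pairing (correlations of deviations in regions of -0.25 to 0.44) and were not treated as paired. Values of some listed genes are not reported here.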

Additional observations from a re-analysis of the deposited data

Results flagged for a closer look

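The values in this section are given because the response to cocaine differed between the sexes by the interaction term. The male effect minus the mean female effect was 0.95 (log2) for the promoter peak of Slc32a1 and 0.96 for the whole start region of Slc32a1. In the covered share of the gene window it was 0.62 for Gad2 and 0.78 for Slc32a1, where all windows had a median of 0.26. Members called in this direction were 1 of 6 promoters, 1 of 17 regions and 2 of 7 windows. The shares over all features were 11.6%, 8.17% and 23%, respectively. The 2 male cocaine libraries carried the fewest peaks, and the sum over cortical excitatory markers was 36.9 to 41.9 in male controls and 3.17 to 3.26 in cocaine males. The part of these in the differences was not tested.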

How the results depend on the processing

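Of the single values past the threshold, 1073 alternatives kept the direction and the call, 233 kept the direction and lost the call and 5 changed sign. All 5 came from plain base pairs in place of the share of covered bases: Slc32a1 in males (-0.22), Dlx5 in males (-0.21), Gad1 over the strata (-0.16), and the male minus female effect at Gad2 (-0.25) and Slc32a1 (-0.088). Counts of members called changed by over 1.5 times as follows, and the cause was not tested. With −log10 q of at least 5, gained in diestrus was 1, lost in diestrus 1, lost in males 2, genes past the permutation test 0 and covered share in males 6. With equal numbers of peaks, gained in diestrus was 3, lost in diestrus 1, gained in males 3, lost in males 0 and the permutation test 0, which was 0 also without the filter on regions. With an overlap of at least 50% of the region required, gained in proestrus and in males were 0 and lost in males 4. With windows of 5 kb, lost in males was 0 and covered share in diestrus 1, and with 50 kb lost in males was 3, region strength for the male minus female effect 3 and covered share in proestrus 2. Region strength was 1 in diestrus with −log10 p and 8 in males with median centring. With GC correction the male minus female effect was 2 for regions and 1 for covered share, promoters in diestrus were 1 and covered share in proestrus 0. Median centring and quantile normalization gave 1 and 0 for the male minus female effect in covered share. In females alone, 3 regions and 3 covered shares passed. In plain base pairs, covered share gave 0 in diestrus, 0 in proestrus, 1 in males and 1 over the strata.

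With the replicate block, promoters past the threshold were 1 in males and 2 over the strata and covered shares 1 in diestrus, and with GC correction as well, regions were 4 in diestrus and 2 for the male minus female effect. The numbers are shared by name only, since same-numbered libraries did not deviate together, and 5 of 36 same-numbered pairs correlated over 0.1 in region strength. It ended the calls of Dlx5 (0.36, adjusted p = 0.0578) and Dlx6 (0.34, adjusted p = 0.0596) at promoters over the strata, and of Gad2 in males (0.61, adjusted p = 0.0881).

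Leaving out each library gave ranges of members called. Calls gained and lost ranged over 6 to 11 and 0 to 1 in diestrus, 1 to 3 and 0 to 1 in proestrus, and 1 to 6 and 1 to 3 in males, and the Fisher and permutation tests over 0 to 0 and 0 to 1. Region strength ranged over 0 to 5 in diestrus, 0 to 1 in proestrus, 1 to 6 in males, 4 to 10 over the strata, 3 to 8 for sex, 1 to 3 for the male minus female effect and 0 to 0 for stage. Promoter strength ranged over 0 to 4, 0 to 0, 0 to 3, 1 to 4, 3 to 6, 0 to 2 and 0 to 0 in the same order. Covered share ranged over 0 to 6, 1 to 2, 1 to 5, 5 to 6, 3 to 4 and 0 to 2, without stage.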
